A study of Mus musculus with 4 samples.

Results

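The 10 genes described here mark the endothelial cells that line the liver sinusoids: Stab1, Stab2, Clec4g, Lyve1, Kdr, Pecam1, Fcgr2b, Oit3, Dnase1l3 and Eng. They were taken by symbol, through their Ensembl identifiers, from the 48709 genes in the count files, and all 10 were found and passed the filter on low counts that left 13699 genes to test. Whole livers of untreated adult C57BL/6 mice were sequenced as 4 poly(A) libraries, 2 per group. The WT mice were Cre-negative littermates with floxed Ddi2 alleles, and the DDI2-KO mice, whose labels give the genotype as DDI2-/-, had the same alleles together with Cre under the albumin promoter. Both groups therefore share the floxed allele, and the albumin promoter is active in hepatocytes and not in endothelial cells. Sex was not given for single libraries.

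Sinusoidal endothelial cells form a perforated lining without a continuous basement membrane, through which plasma reaches the hepatocytes. They are known as the main scavengers of the liver, clearing hyaluronan, denatured collagen, modified lipoproteins and immune complexes through a small set of endocytic receptors. They also respond to VEGF and BMP ligands made by their neighbours, and their gene expression grades from the portal to the central side of the lobule. None of the 10 genes is specific to these cells in every tissue. Stab1, Fcgr2b and Dnase1l3 are also expressed by macrophages, and Pecam1 by leukocytes and platelets.

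The libraries held 22501208 to 34109018 reads on genes, and 3 reads, taken as the floor of detection, stood for 0.0892 to 0.131 CPM (reads divided by the TMM-scaled library size and shown on the usual CPM scale). The 10 genes had 431 to 4135 reads each in each library. The targeted gene, Ddi2, had 141 and 123 CPM in WT and 157 and 164 CPM in the libraries labelled DDI2-KO. Ddi2 was thus not lower in DDI2-KO. Exon 2, taken here as the floxed exon, is 1.36% of the longest Ddi2 transcript. Loss of its bases alone would change the whole-gene count little, so that count was not used to check the labels. An effect of the deletion on the level of the whole transcript was not tested. Reads that fell on no gene, relative to reads on genes, were 4.70% to 5.11% in WT and 2.53% to 3.65% in DDI2-KO. Reads on mitochondrially encoded genes were 9.91% to 10.5% of reads on genes in WT and 5.27% to 6.34% in DDI2-KO. The part of these differences in the results below was not tested, except where a value without them is given.

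Of the 10 marker genes, 1 was lower in DDI2-KO livers with an adjusted p under 0.05, the scavenger receptor gene Stab2, and none was higher. The quasi-likelihood test of edgeR, adjusted after Benjamini and Hochberg over all 13699 genes, passed 2.53% of them, 1.2% lower and 1.33% higher. The higher genes made up 52.6% of the calls, 39.7% with upper-quartile factors and 60.8% with library totals. Stab2 fell to 46.6% of its WT level (95% interval 35.7% to 60.9%). The other 9 genes had fitted levels from 62.8% of WT for Lyve1 to 121% of WT for Dnase1l3. The median log2 fold change of the 10 genes was -0.00041, with 5 above 0 and 5 below (6 above with library totals and 4 above with upper-quartile factors), beside a median of -0.015 over all genes tested. Read as cell content, the 10 genes did not give a single value, and that of Stab2 was the lowest. Among the other 9, the intervals of Lyve1 (41.3% to 95.3% of WT) and Eng (57.5% to 114%) overlapped that of Stab2. In whole liver, fewer cells of a type and less RNA per cell cannot be told apart.

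**Figure D1:**
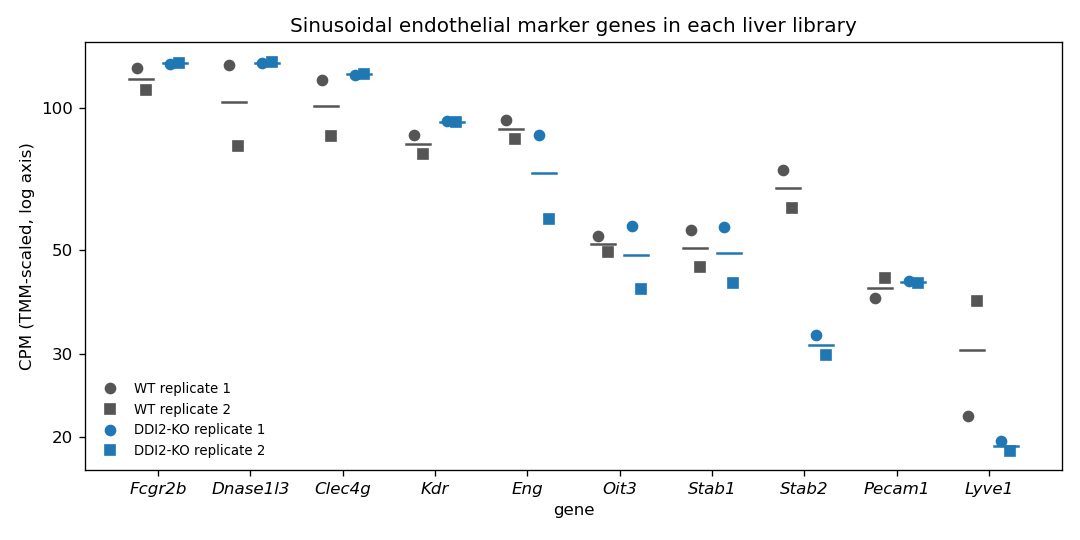
Level of each of the 10 marker genes in each library, in CPM on a log axis, with genes ordered by their mean over the 4 libraries. Points are single libraries (WT grey, DDI2-KO blue, circles replicate 1, squares replicate 2) and short lines are group means. The Stab2 points of DDI2-KO, 32.9 and 29.9 CPM, lie well below those of WT, 73.7 and 61.2 CPM.

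Stab1 and Stab2 encode stabilin-1 and stabilin-2, large related scavenger receptors that share their domain order, and stabilin-2 is the main hyaluronan clearance receptor of the sinusoid. Stab2 (ENSMUSG00000035459) occupies 86841198 to 87008025 of chromosome 10 (GRCm38, as for all coordinates here), minus strand, and its longest transcript has 69 exons. It had 2479 and 1890 reads in WT and 852 and 688 reads in DDI2-KO, or 73.7 and 61.2 CPM against 32.9 and 29.9 CPM. Both DDI2-KO libraries lay below both WT libraries, and the groups were further apart than the replicates of either. WT averaged 67.5 ± 8.88 CPM (SD, n = 2), and DDI2-KO averaged 31.4 ± 2.11 CPM (SD, n = 2). The log2 fold change of Stab2 was -1.10 (SE 0.17, edgeR adjusted p = 0.0288).

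Among the 164 genes called lower, Stab2 ranked 119 by the size of its fall, and among the 92 of these with a mean of at least 10 CPM it ranked 47. It was called in 15 of 16 alternatives, which covered 4 other scalings, DESeq2, limma-voom, limma-trend, other filters and fits, a replicate block, offsets for transcript length and GC content, and each library left out. With a library left out, 1 library was compared with 2, so the spread came from the other group alone and the lone library was assumed to vary like it. The exception was the fit without WT replicate 1, in which its log2 fold change was -0.96 and its adjusted p 0.109. Over the 16 alternatives the adjusted p ranged from 1.79e-05 to 0.109 and the log2 fold change of Stab2 from -1.23 to -0.96. With the offsets for length and GC content its log2 fold change was -1.02 (adjusted p = 0.0152 from edgeR).

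Stab1 (ENSMUSG00000042286, minus strand of chromosome 14, 31139013 to 31168641) also has 69 exons in its longest transcript and is nearly as long, 7999 bases against 8228 for Stab2. Its level was 55.0 and 46.0 CPM in WT and 55.8 and 42.5 CPM in DDI2-KO, so the groups overlapped. The log2 fold change of Stab1 was -0.040 (SE 0.19, edgeR adjusted p = 0.924), with a 95% interval of 72.2% to 131% of the WT level. No stretch of 50 bases of either transcript occurs in an annotated transcript of another gene, so reads that long separate the paralogs. For each Stab1 read, WT had 1.34 and 1.33 Stab2 reads and DDI2-KO had 0.590 and 0.705. This ratio is taken within a library and does not depend on the scaling. Kdr, described below, has the next longest transcript of the 10, 5924 bases.

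The bases just upstream of the annotated start of both stabilin genes are shown because the paralogs differed in response. These are 150 bases each from the RefSeq promoter table of GRCm38.p6, both on the minus strand, Stab1 at chr14:31168642-31168791 and Stab2 at chr10:87008026-87008175. Capitals mark GGAA, the core letters bound by ETS family factors, which are central to endothelial transcription, on either strand (TTCC on the strand shown).
Stab1: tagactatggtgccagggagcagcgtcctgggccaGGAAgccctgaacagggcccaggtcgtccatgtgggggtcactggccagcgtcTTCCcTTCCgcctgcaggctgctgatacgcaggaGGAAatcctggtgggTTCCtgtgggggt
Stab2: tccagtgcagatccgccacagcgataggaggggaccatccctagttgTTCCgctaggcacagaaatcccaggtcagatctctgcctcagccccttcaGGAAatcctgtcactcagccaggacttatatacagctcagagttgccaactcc
The Stab1 stretch holds 5 such matches and the Stab2 stretch 2. In the whole 300-base windows of the table, which run on past the start, both genes have 6, and 96% of all 32841 windows hold at least 1. The core of the antioxidant response element, TGACNNNGC, which NRF1 and its relatives bind, was searched on both strands in the same windows. It is in 12.4% of all windows, and of the 6 members with a window (Stab1, Stab2, Clec4g, Kdr, Fcgr2b and Eng; not Lyve1, Pecam1, Oit3 or Dnase1l3), only Kdr holds it, with 1 match. GATAA, the core of GATA sites, is in 25.4% of all windows and in none of these 6. The motifs were counted separately, so matches of different motifs may overlap.

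Lyve1 encodes another hyaluronan receptor, a link-domain protein best known from lymphatic vessels that is also abundant in the liver sinusoid. It lies on the minus strand of chromosome 7, from 110850607 to 110863239. Its level was 22.2 and 38.9 CPM in WT and 19.6 and 18.8 CPM in DDI2-KO. WT replicate 2 stood apart, and WT replicate 1 was much closer to the DDI2-KO libraries than to the other WT library. The log2 fold change of Lyve1 was -0.67 (SE 0.26, edgeR adjusted p = 0.177), so it did not pass. Without WT replicate 2 its log2 fold change was -0.21 (adjusted p = 0.760 from edgeR) and without WT replicate 1 it was -1.02 (adjusted p = 0.0964), while over all 16 alternatives the adjusted p ranged from 0.0525 to 0.760. Stab2 and Lyve1 did not follow each other within WT. From replicate 1 to replicate 2 of WT, the level of Lyve1 was higher by 0.81 on the log2 scale, and that of Stab2 differed by -0.27.

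Clec4g and Fcgr2b bind ligands from the blood. Clec4g encodes LSECtin, a C-type lectin of sinusoidal endothelium, and lies on the minus strand of chromosome 8 from 3707064 to 3720651. Its level was 115 and 86.9 CPM in WT and 118 and 118 CPM in DDI2-KO. The DDI2-KO libraries lay just above WT replicate 1, and the distance to it was far smaller than the gap between the WT replicates. Clec4g had a fitted log2 fold change of 0.22 (SE 0.18, edgeR adjusted p = 0.511). Fcgr2b encodes the inhibitory IgG receptor that takes up small immune complexes in these cells, and lies on the minus strand of chromosome 1 from 170958617 to 170976547. Its level was 122 and 109 CPM in WT and 124 and 125 CPM in DDI2-KO. These libraries differed little, and the log2 fold change of Fcgr2b was 0.11 (SE 0.16, edgeR adjusted p = 0.729). Of its stretches of 50 bases, 7.44% occur in other genes, first of all the paralog Fcgr3, so reads from these stretches may have been left out as not unique. Fcgr3 itself had 660 and 512 reads in WT and 533 and 371 reads in DDI2-KO (log2 fold change 0.022, adjusted p = 0.960 from edgeR).

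Kdr, Eng and Pecam1 encode proteins of endothelial signalling and junctions. Kdr encodes VEGFR2, the main signalling receptor for VEGF-A, and lies on the minus strand of chromosome 5 from 75932827 to 75978458. Its level was 87.6 and 79.9 CPM in WT and 93.6 and 93.1 CPM in DDI2-KO, with a log2 fold change of 0.16 (SE 0.16, edgeR adjusted p = 0.595). Both DDI2-KO libraries were above both WT libraries, and WT replicate 1 lay closer to them than to WT replicate 2. Pecam1 encodes the junction protein CD31 and lies on the minus strand of chromosome 11 from 106654217 to 106750628. Its level was 39.5 and 43.6 CPM in WT and 42.8 and 42.5 CPM in DDI2-KO. All 4 libraries were close, and the log2 fold change of Pecam1 was 0.039 (SE 0.15, edgeR adjusted p = 0.907), with a 95% interval of 80.5% to 131% of the WT level.

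Eng encodes endoglin, a co-receptor for BMP9 and BMP10, and is the member on the plus strand, at 32646595 to 32682669 of chromosome 2. Its level was 94.4 and 85.8 CPM in WT and 87.6 and 58.1 CPM in DDI2-KO. DDI2-KO replicate 1 lay among the WT libraries and DDI2-KO replicate 2 lay below all others. For Eng the log2 fold change was -0.31 (SE 0.21, edgeR adjusted p = 0.426). Without DDI2-KO replicate 2 it was -0.032 and without DDI2-KO replicate 1 it was -0.63, and over all 16 alternatives the adjusted p of Eng ranged from 0.0929 to 0.932.

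Oit3 and Dnase1l3 encode secreted proteins. Oit3 encodes a zona pellucida domain protein expressed mainly in liver, and lies on the minus strand of chromosome 10 from 59422958 to 59441778. Its level was 53.6 and 49.5 CPM in WT and 56.3 and 41.3 CPM in DDI2-KO, and the groups overlapped. Oit3 had a log2 fold change of -0.078 (SE 0.19, edgeR adjusted p = 0.836). Dnase1l3 encodes a secreted DNase that digests chromatin released from dying cells, and lies on the minus strand of chromosome 14 from 7964533 to 7994573. Its level was 123 and 83.0 CPM in WT and 124 and 125 CPM in DDI2-KO. As for Clec4g, the DDI2-KO libraries and WT replicate 1 were almost level and WT replicate 2 was lower. Dnase1l3 had a log2 fold change of 0.28 (SE 0.21, edgeR adjusted p = 0.468).

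**Figure D2:**
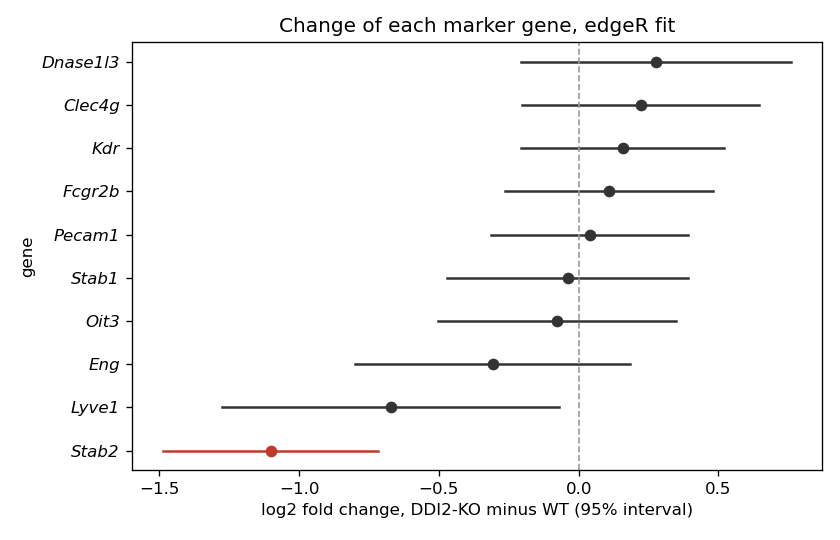
Log2 fold change of each marker gene, DDI2-KO minus WT, from the edgeR fit, with its 95% interval, not adjusted for the number of genes. Red marks an adjusted p under 0.05, which Stab2 alone among the 10 reached. The intervals of Stab2 and Lyve1 lie below 0 and those of the other 8 genes cross it.

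The intervals show, gene by gene, which sizes of change fit these libraries, and they are not limits of detection. That of Lyve1, 41.3% to 95.3% of the WT level, lay below the WT level although Lyve1 was not called (edgeR adjusted p = 0.177). For the 8 genes whose interval crossed 0, the lower bound ran from 57.5% of the WT level for Eng to 87.0% for Clec4g, and the upper bound from 114% for Eng to 169% for Dnase1l3. A fall to the upper bound of Stab2, 60.9% of the WT level, lay inside the interval of Eng and outside those of the other 7. In 4 of the 10 genes both DDI2-KO libraries were above both WT libraries, in 2 both were below, and in 4 the groups overlapped. Over all genes tested the groups did not overlap in 55.7%, with DDI2-KO above in 28% and below in 27.7%, so the 6 of 10 is close to that background. With 2 libraries in each group, an exact permutation test of a single value cannot go below a two-sided p of 0.333.

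The sum of the 10 genes was 785 and 684 CPM in WT and 755 and 694 CPM in DDI2-KO, and the DDI2-KO libraries lay between the WT libraries. Without Stab2 the sum of the other 9 was 712 and 623 CPM in WT and 722 and 664 CPM in DDI2-KO. This is 667 ± 62.8 CPM (SD, n = 2) against 693 ± 40.8 CPM (SD, n = 2), a difference of 25.6 CPM that is smaller than the spread between replicates. Stab2 reads amounted to 10.4% and 9.82% of the reads of the other 9 genes in WT and to 4.56% and 4.51% in DDI2-KO. This share separated the groups with almost no spread within them. Lyve1 reads amounted to 2.92% and 6.04% of the reads of its other 9 genes in WT and to 2.67% and 2.78% in DDI2-KO, so WT replicate 1 lay beside the DDI2-KO libraries. Relative to Lyve1, Stab2 had 3.31 and 1.57 reads for each Lyve1 read in WT and 1.68 and 1.60 in DDI2-KO, a ratio that did not separate the groups.

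**Figure D3:**
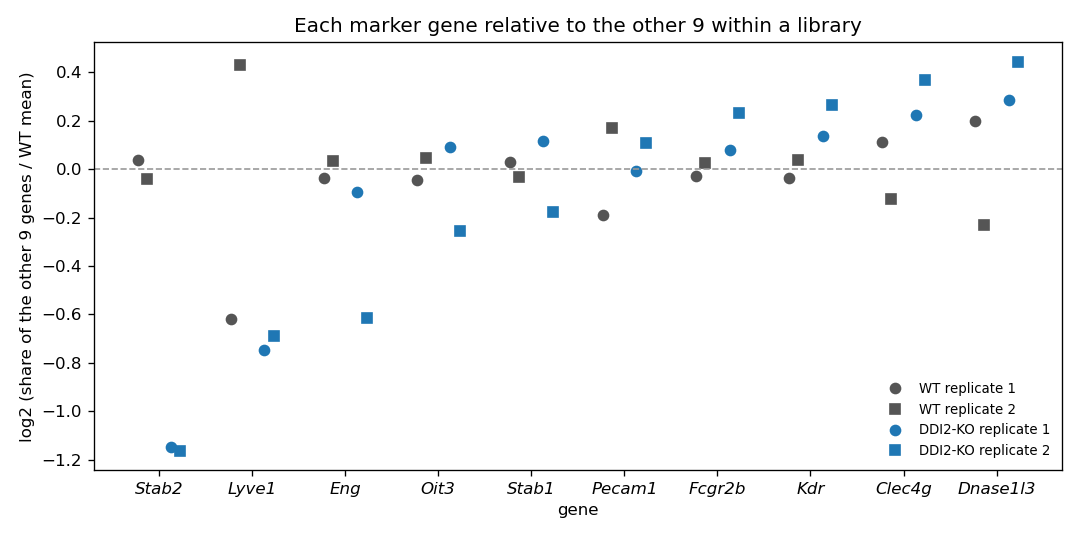
Reads of each marker gene as a share of the reads of the other 9 in the same library, on a log2 scale against the WT mean of that share. Points are single libraries. Stab2 in DDI2-KO lies at -1.15 and -1.16, below every other point, while Lyve1 in WT replicate 1 lies at -0.62, beside its DDI2-KO points.

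Per length of annotated exon, Clec4g was the most abundant member, with a mean of 44.4 CPM per kilobase over the 4 libraries, and its range did not overlap that of any other. Dnase1l3 (22.1), Fcgr2b (20.7), Eng (20.1) and Oit3 (17.99 CPM per kilobase) followed, and their ranges overlapped from each gene to the next. The remaining 5 formed a lower group, Kdr (9.80), Lyve1 (8.53), Pecam1 (6.76), Stab2 (5.65) and Stab1 (4.84 CPM per kilobase), in which neighbours overlapped as well. Stab2 was 8th of the 10 in the WT mean and 10th in the DDI2-KO mean, where it fell below Stab1. Exon length was the union over all annotated transcripts, which for Clec4g, 2462 bases, is longer than its longest transcript, 1442 bases. The same holds for Kdr (9030 against 5924 bases), Pecam1 (6228 against 3441) and Fcgr2b (5790 against 3544). The order below Clec4g and the ranks of Stab2 thus depend on this choice of length.

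The replicates of a group did not vary alike over the members. In DDI2-KO, 6 genes (Clec4g, Fcgr2b, Dnase1l3, Kdr, Pecam1 and Lyve1) differed from replicate 1 to replicate 2 by -0.066 to 0.010 on the log2 scale. For Stab1, Oit3 and Eng the same difference was -0.39, -0.44 and -0.59, and for Stab2 it was -0.14. Stab1 and Eng have the highest GC content of the 10, 57.3% and 57.4%, whereas that of Oit3 is 50.8%. Whether GC content bears on these replicate differences was not tested. In WT the difference of replicate 2 from replicate 1 ran from -0.57 for Dnase1l3 to 0.81 for Lyve1, with a median of -0.15.

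Other endothelial genes were read from further lists. These lists share some genes, such as Rspo3, which is in both the large vessel and the central-side list, so they are not separate readings. Of 20 other sinusoidal genes tested, none was called, and their median log2 fold change was 0.0019 (-0.050 to 0.050 under the 4 other scalings). The most abundant of them were Ctsl, which encodes the lysosomal protease cathepsin L (log2 fold change 0.18, adjusted p = 0.676), Plpp3 (0.25, adjusted p = 0.503), the water channel gene Aqp1 (0.89, adjusted p = 0.0613) and Ehd3 (0.041, adjusted p = 0.926, all from edgeR). The 20 genes summed to 1600 and 1664 CPM in WT and 1933 and 1803 CPM in DDI2-KO, with both DDI2-KO libraries above both WT libraries. Ctsl alone held 581 and 867 CPM in WT and 891 and 752 CPM in DDI2-KO. Of 20 genes expressed across endothelia none was called, with a median log2 fold change of -0.13, and the VE-cadherin gene Cdh5 was at -0.28 (adjusted p = 0.309 from edgeR). Their summed level was 350 to 357 CPM in WT and 326 to 342 CPM in DDI2-KO. Of 11 tested genes of veins and large vessels none was called, with a median log2 fold change of 0.11. Their list summed to 115 to 130 CPM in WT and 117 to 128 CPM in DDI2-KO, below the 684 to 785 CPM of the 10 sinusoidal markers. The 6 listed lymphatic genes, of which Prox1 is also a hepatocyte gene and Reln a stellate cell gene, had none called and a median log2 fold change of -0.13. With a library left out, the medians crossed 0 and ranged from -0.094 to 0.16 for the other sinusoidal genes, from -0.20 to 0.036 across endothelia, from -0.079 to 0.14 for large vessels and from -0.35 to 0.15 for the lymphatic genes. Of these lists only the other sinusoidal genes gained a call in any setting, 1 gene higher with DESeq2, the replicate block, no filter on low counts, or without DDI2-KO replicate 1.

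Sinusoidal genes known for their place in the lobule were read as a pair of lists. Of 10 central-side genes, 8 had a fitted value above 0, with a median log2 fold change of 0.50, and of 10 portal-side genes all 10 had one below 0 (9 of 10 with library totals), with a median of -0.27. None of these 20 passed an adjusted p of 0.05 from edgeR, and with no filter on low counts 3 central-side genes were called higher and 1 lower. Over all 13699 genes tested, 6672 had a fitted value above 0 and 7027 below. The most abundant central-side genes did not move alike. The stem cell factor receptor gene Kit was at 0.66 (adjusted p = 0.120), the fatty acid binding protein gene Fabp4 at -0.70 (adjusted p = 0.0860), Rspo3 at -0.23 (adjusted p = 0.649) and Cdh13 at 0.047 (adjusted p = 0.951, all from edgeR). On the portal side the scavenger receptor gene Msr1, which macrophages also express, was at -0.40 (adjusted p = 0.236), Ltbp4 at -0.63 (adjusted p = 0.333), Lama4 at -0.13 (adjusted p = 0.736) and Il1a at -0.14 (adjusted p = 0.797, all from edgeR). Without WT replicate 2 the central and portal medians were 0.14 and -0.17, with 6 of 10 above 0 and 7 of 10 below 0, and without WT replicate 1 they were 0.92 and -0.49, with 9 of 10 above 0 and 9 of 10 below 0. The size of both medians thus depended on which WT library was used. WT replicate 2 was also the library that stood apart in Lyve1, Dnase1l3 and Clec4g.

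The ligands, receptors and target genes of the VEGF, angiopoietin and BMP pathways gave 2 calls among 22 tested, both of BMP-SMAD targets that were higher. Of the 22 genes, 9 had a fitted value above 0 and 13 below, from -1.67 to 1.65, with a median log2 fold change of -0.12. Other settings called other numbers, 4 higher with DESeq2, 1 higher with limma-voom, 3 higher and 2 lower with the replicate block, 3 higher and 2 lower among 23 with no filter on low counts, and none without WT replicate 1. The other BMP-SMAD targets in the list, Id1 and Smad6, were at 1.65 (adjusted p = 0.114) and -0.32 (adjusted p = 0.634, both from edgeR). Id3, which encodes an inhibitor of basic helix-loop-helix factors, had 20.8 and 20.7 CPM in WT and 66.1 and 43.7 CPM in DDI2-KO. The fitted log2 fold change of Id3 was 1.40 (SE 0.21, edgeR adjusted p = 0.0289). Smad7, which encodes an inhibitory SMAD, had 6.57 and 10.7 CPM in WT and 19.9 and 22.5 CPM in DDI2-KO, with a log2 fold change of 1.30 (SE 0.25, edgeR adjusted p = 0.0438). Id3 lost its call in 1 of 16 alternatives, without WT replicate 1 (log2 fold change 1.41, adjusted p = 0.0680, range 2.60e-07 to 0.0680). Smad7 lost it in 6, among them limma-voom (adjusted p = 0.0549, range 2.37e-05 to 0.150) and the fits without WT replicate 1, without DDI2-KO replicate 1 and without DDI2-KO replicate 2 (log2 fold change 0.99, 1.39 and 1.22). Hepatocytes express these targets too, so in whole liver the cells behind them are not known. Of the receptors, the member Kdr is given above, and the VEGF co-receptor gene Nrp1 was at 0.80 (adjusted p = 0.0517 from edgeR). Vegfa, the ligand of the Kdr product, was at -0.38 (adjusted p = 0.228).

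**Figure D4:**
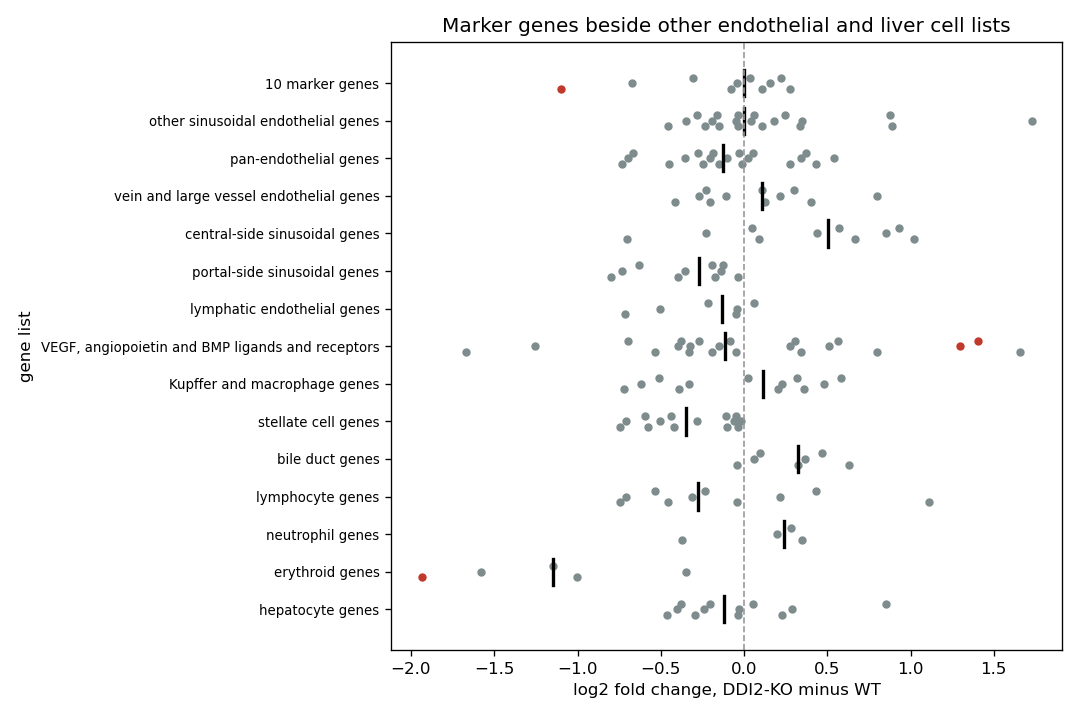
Log2 fold change, DDI2-KO minus WT, of every tested gene of the 10 markers and of 14 other lists, with the list median as a black line and genes with an adjusted p under 0.05 in red. Among the 10 markers Stab2 is red at -1.10 and the median lies at 0, and the erythroid list lies furthest to the left, with a median of -1.14 (-0.57 without WT replicate 2).

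Other cells of the liver were read from their own lists beside the 10 markers. Of 12 Kupffer and macrophage genes, a list without Stab1, Fcgr2b and Dnase1l3, which macrophages also express, none was called. Their median log2 fold change was 0.12, with a summed level of 888 to 1051 CPM in WT and 921 to 1126 CPM in DDI2-KO. These 12 genes did not move alike, with 7 above 0 and 5 below, from -0.72 to 0.58. Of 14 stellate cell genes none was called, all 14 had a fitted value below 0 (11 of 14 with library totals), the median was -0.35 and the sums were 1108 to 1174 CPM in WT and 1001 to 1014 CPM in DDI2-KO. The stellate median was -0.15 without WT replicate 2 and -0.13 without DDI2-KO replicate 2, each with 11 of 14 below 0, and 1 gene was called lower in the second of these fits. No gene was called among 12 hepatocyte genes (median -0.12), 7 tested bile duct genes (0.32), 10 lymphocyte genes (-0.27) and 4 tested neutrophil genes (0.24). With a library left out, the medians ranged from -0.041 to 0.25 for the macrophage genes, -0.14 to 0.0070 for hepatocytes, 0.15 to 0.50 for bile ducts, -0.43 to -0.15 for lymphocytes and -0.11 to 0.32 for neutrophils. DESeq2 called 1 macrophage gene and 1 hepatocyte gene higher. The replicate block called 1 macrophage gene and 1 stellate gene lower and 1 hepatocyte gene higher. With no filter on low counts, 1 macrophage gene was called higher and 1 lower, 1 stellate gene lower and 1 hepatocyte gene higher. The neutrophil gene Ly6g had 0 reads in every library. Of 5 tested erythroid genes 1 was called lower, the globin gene Hba-a1, at 25.6 and 47.6 CPM in WT and 10.3 and 8.83 CPM in DDI2-KO (log2 fold change -1.94, SE 0.30, edgeR adjusted p = 0.0338). Reads that align equally well to the near-identical Hba-a2 are counted as not unique and were left out, so the Hba-a1 count may be incomplete. Hba-a1 lost the call without DDI2-KO replicate 1 (log2 fold change -2.05) and without DDI2-KO replicate 2 (-1.82). Without WT replicate 2 the log2 fold change of Hba-a1 was -1.42, and it stayed called. The erythroid median, -1.14, was -0.57 without WT replicate 2, with 4 of 5 below 0, and -1.55 without WT replicate 1, with 4 of 5 called lower. The erythroid genes summed to 110 to 210 CPM in WT and 68.3 to 79.4 CPM in DDI2-KO. The part of red cell RNA in the fall of Stab2 was not tested.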

How the data were processed

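Liver RNA of 4 mice was sequenced from TruSeq Stranded mRNA libraries. The files the authors deposited hold raw counts of reads per Ensembl gene, 1 file per library, not normalized. The submitters' processing notes name cutadapt 1.8, STAR 2.5.2b, HTSeq 0.6.1 and GRCm38. The annotation release and the strand setting of the counting are not given in the sources used here. At most 5.93% of the exon bases of a member overlap a gene on the other strand. The 5 summary rows of each file, such as reads on no gene (2.53% to 5.11% of reads on genes), were left out of library sizes and tests. Symbols, coordinates, lengths and GC content are from GENCODE vM21 (GRCm38), which holds 48349 of the 48709 identifiers, and upstream sequences are from RefSeq (GRCm38.p6).

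Tests used R 4.3.3 and edgeR 4.0.16, with TMM factors, filterByExpr, glmQLFit with robust estimation and glmQLFTest, and p-values were adjusted by Benjamini-Hochberg over 13699 genes. The study used limma's moderated test, run here as an alternative (limma 3.58.1), as was DESeq2 1.42.0. The standard error is the log2 fold change divided by the square root of F, and 95% intervals use the degrees of freedom of the same fit.

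The members, lists and rule for named genes were chosen with earlier results of these data known. Named are all members, Ddi2, list genes with an adjusted p under 0.05, and up to 4 genes with the highest mean CPM of each list. Id1, Smad6, Ly6g and Fcgr3 are outside the rule and were picked with their values in view, as was the choice of which abundant list genes to show. Offsets for transcript length and GC content (lowess span 0.3), and the alternatives for Id3, Smad7 and Hba-a1, were also chosen after seeing the data. Counts of replicates were further apart than sampling noise (chi-square over its degrees of freedom 64.7 in WT, 34.7 in DDI2-KO), and each library was counted as a sample. The study calls them biological replicates.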

Additional observations from a re-analysis of the deposited data

How the results depend on the processing

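The 346 genes called over all genes tested were 932 with DESeq2, 136 with limma-voom, 139 with limma-trend, 1544 without the filter on low counts, 152 without robust estimation, 804 with length and GC offsets, and 1281 at an adjusted p under 0.10. With upper-quartile factors 39.7% of calls were higher and with library totals 60.8%, against 52.6%. Leaving out a library gave 153 to 631 genes, 0 to 1 members called lower, and member medians from -0.10 to 0.12. Genes near 0 changed sign: Pecam1 with upper-quartile factors (-0.014) and offsets (-0.069), Stab1 with library totals (0.0076) and offsets (0.19), and, with a library left out, Stab1 (-0.25 to 0.15), Pecam1 (-0.028 to 0.11) and Oit3 (-0.31 to 0.14). The cause was not tested. No member was called higher in any of these settings. With the replicate number as a block (replicate block), 1108 genes were called and the members called were unchanged, Stab2 lower at -1.10. The difference of replicate 2 from replicate 1 correlated little between the groups (0.047 across genes). This value cannot tell whether equal numbers share a litter or day, which the sources used here do not give. With 2 mice per group, the intervals leave room for changes up to the bounds given in the 8 members whose interval crosses 0. They are not limits of detection, since a call needed an adjusted p under 0.05. Lyve1 missed it although its interval lay below 0.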
